A study of Saccharomyces cerevisiae with 24 samples.

Results

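The mitochondrial carrier family was followed here through 30 of its genes, out of 6256 genes with a probe on the arrays. A gene was taken as a member when the systematic name of its probe was that of 1 of the 30 listed carriers, irrespective of its signal, and each was found on 1 probe printed as 2 spots per array. The list itself was chosen with earlier results of these data known. The files carry systematic names only, and the symbols used below are those of the RefSeq table for the yeast R64 assembly. The member listed as YER053C is named PIC2 in that table and is called PIC2 below.

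Mitochondrial carriers are small proteins of the inner mitochondrial membrane, built from a repeated pair of membrane helices, that exchange nucleotides, phosphate, carboxylic and amino acids, cofactors and metals between the matrix and the cytosol. ANT1 is an exception in place, since it sits in the membrane of peroxisomes. Yeast cells given glucose ferment it and repress many respiratory genes, whereas growth on glycerol requires respiration and hence a matrix supplied with ADP, phosphate and carbon intermediates.

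Transcript levels were read from 24 one-color Agilent arrays of yeast genes. The 3 strains and 2 media made 6 groups, each with 4 biological replicates. All strains were W303 (MATa, with the his3, trp1, ura3, ade2, leu2 and can1 marker alleles), and SEF1, the gene of a zinc cluster transcription factor, was their only stated difference. WT carried SEF1 unchanged, sef1 carried a complete SEF1 deletion marked with NatMX4, and SEF1-VP16, a single clone, carried at the native locus a SEF1 gene extended at its 3′ end by the viral VP16 activation domain. Overnight YPD cultures were diluted to 0.2 OD600/ml in YPD (glucose) or YPGly (glycerol) and were grown for 5.5 h at 30 °C.

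Values are normalized log2 intensities, that is log2 of the processed signal minus the 75th percentile of its own array. Those percentiles ran from 5319.6 to 16181.8 intensity units, and between 90.89% and 97.49% of the probes were well above background on an array. SEF1 itself was not well above background on any sef1 array, which put its WT level at least 8.14-fold higher in YPD and at least 32.9-fold higher in YPGly. The glucose-repressed genes ADH2 (ethanol oxidation), FBP1 (gluconeogenesis) and ICL1 (glyoxylate cycle) were 339-fold, 114-fold and 21.4-fold higher in YPGly on average over the strains. All 30 members passed the intensity filter that 5641 of the 6256 probes passed, and none was below background on every array of a group.

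The 24 arrays lay on 3 slides of 8, each slide holding 2 groups. Slide 1 held the YPD arrays of WT and sef1, slide 2 the YPGly arrays of WT beside the YPD arrays of SEF1-VP16, and slide 3 the YPGly arrays of the other strains. Only the comparisons of sef1 with WT in YPD and of SEF1-VP16 with sef1 in YPGly were therefore made within a slide. The 2 groups of a slide lay in separate rows of it, so row and group cannot be told apart in these comparisons. For every other comparison slide and group cannot be told apart within a medium, and a fit with slide as a term, which assumes that strain and medium add, is given where it moved a result.

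The change of medium touched most of the family. A gene was called when its adjusted p was under 0.05 and its difference at least 1.5-fold. In WT, 9 of the 30 carriers (30%) were called higher in YPGly and 12 (40%) lower, against 21.1% and 18.1% of all genes tested. In sef1 the counts were again 9 higher and 12 lower, where the background was 19.4% in each direction. In SEF1-VP16, 8 were called higher and 10 lower (26.7% and 33.3%), against 19.6% and 21.7% of all genes. Across the strains, 8 carriers were called higher in all 3, 10 were called lower in all 3, and none was called in opposite directions. Calls in every strain were not counted over all genes, so the counts of such calls, here and by substrate below, have no background. The median difference over the 30 was close to 0 in each strain (-0.11 in WT, -0.05 in sef1 and 0.07 in SEF1-VP16), as was that over all genes tested (0.01, -0.02 and -0.05). On the array level, 9 carriers had all 12 YPGly values above all 12 YPD values and 11 had them all below, a pattern shown by 23.4% and 23.7% of all genes tested.

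**Figure D1:**
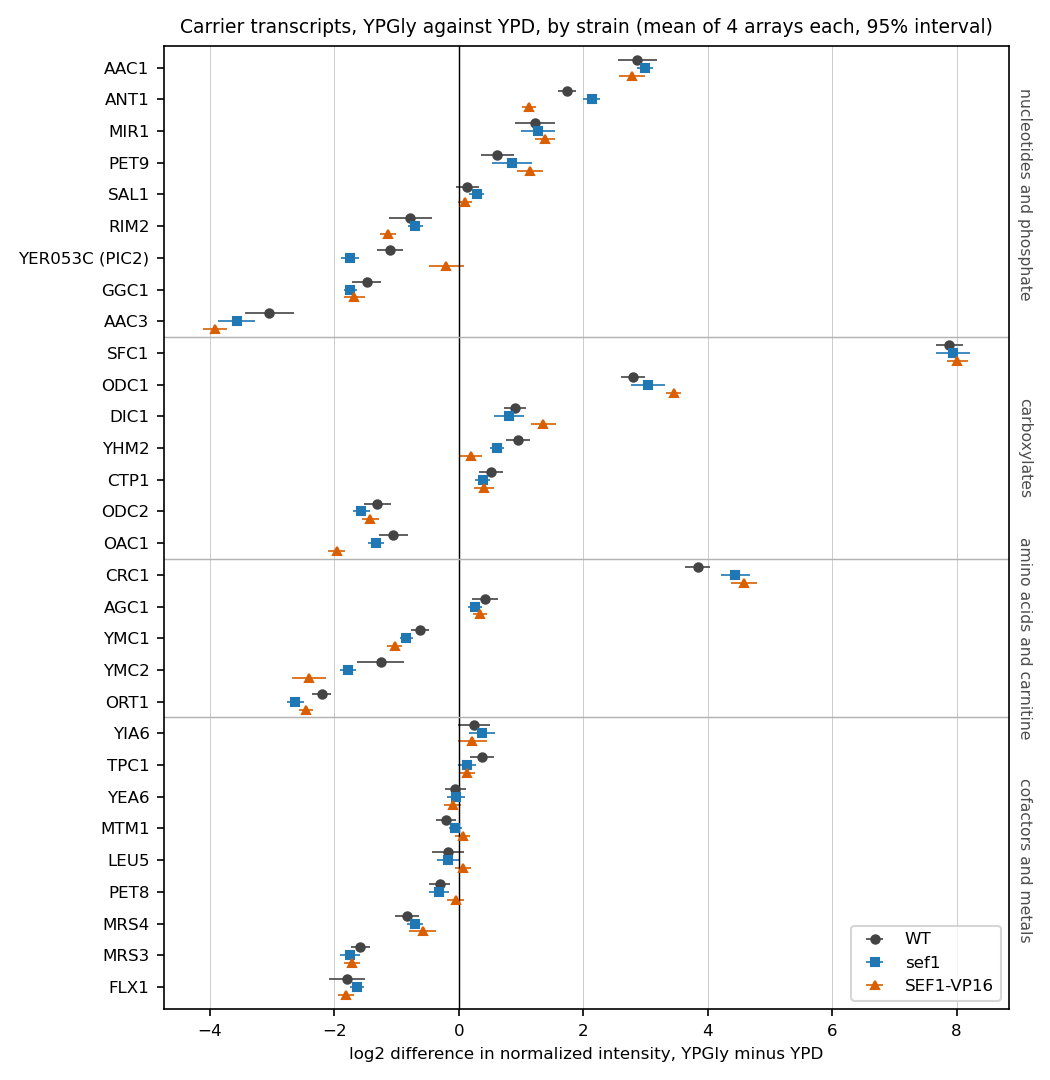
Log2 difference in normalized intensity between YPGly and YPD (x axis) for each of the 30 carriers (y axis, grouped by substrate), in WT (circles), sef1 (squares) and SEF1-VP16 (triangles); each point compares 4 arrays with 4 and the bar is the 95% interval of the limma fit. SFC1 lies far to the right near 8 in all strains, AAC3 lies farthest to the left, 6 of the 9 cofactor and metal carriers gather around 0, and PIC2 shows the widest separation of strains.

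Among the 9 carriers of nucleotides and phosphate, 4 were called higher in YPGly in every strain and 3 lower in every strain. The ADP/ATP exchangers, which bring ADP into the matrix and ATP out of it, split between the directions. AAC1 (YMR056C), a minor isoform of aerobic cells, read -1.49, -1.50, -1.52 and -1.38 on the WT arrays, -1.62, -1.76, -1.79 and -1.73 on the sef1 arrays and -1.88, -1.82, -1.83 and -1.77 on the SEF1-VP16 arrays in YPD. Its YPGly values were 1.61, 1.31, 1.69 and 0.97 on the WT arrays, 1.38, 1.21, 1.19 and 1.30 on the sef1 arrays and 1.17, 0.72, 0.85 and 1.08 on the SEF1-VP16 arrays. No YPGly array overlapped a YPD array, and the difference was 2.87 ± 0.14 in WT, 3.00 ± 0.06 in sef1 and 2.78 ± 0.09 in SEF1-VP16 (SE), a mean rise of 7.37-fold with the highest adjusted p of the 3 strains at 3.16e-08.

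PET9 (YBL030C), the main exchanger of respiring cells, rose far less. Its YPD readings were 3.67, 3.78, 3.72 and 3.63 on the WT arrays, 3.82, 3.83, 3.78 and 3.64 on the sef1 arrays and 3.58, 3.71, 4.04 and 3.85 on the SEF1-VP16 arrays. Its YPGly readings were 4.21, 4.62, 4.03 and 4.42 on the WT arrays, 4.39, 4.26, 4.90 and 4.95 on the sef1 arrays and 5.06, 4.92, 4.88 and 4.93 on the SEF1-VP16 arrays. The highest YPD array, SEF1-VP16 replicate 3, just passed the lowest YPGly array, WT replicate 3, and the differences were 0.62 ± 0.12 in WT, 0.86 ± 0.14 in sef1 and 1.15 ± 0.09 in SEF1-VP16 (SE), with adjusted p at most 0.000662. Without WT replicate 2 in YPGly the WT difference was 0.52, short of 1.5-fold. It was also short of that in WT under quantile normalization (0.58) and scaling to the array median (0.53).

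AAC3 (YBR085W), the isoform known for its expression without oxygen, fell. In YPD the probe read -4.10, -4.17, -4.15 and -3.95 on the WT arrays, -3.66, -3.80, -3.62 and -3.64 on the sef1 arrays and -3.56, -3.42, -3.46 and -3.28 on the SEF1-VP16 arrays. In YPGly it read -7.70, -6.80, -7.23 and -6.82 on the WT arrays, -7.44, -7.39, -7.40 and -6.75 on the sef1 arrays and -7.38, -7.52, -7.38 and -7.12 on the SEF1-VP16 arrays, and was well above background on 2 of 4 WT arrays, 4 of 4 sef1 arrays and 2 of 4 SEF1-VP16 arrays. The media did not overlap, and the difference was -3.05 ± 0.18 in WT, -3.57 ± 0.14 in sef1 and -3.92 ± 0.09 in SEF1-VP16 (SE), a mean fall of 11.4-fold (highest adjusted p = 1.26e-07). The size near background depended on the background correction: with normexp correction the same differences were -1.97, -2.41 and -2.52, all still called. AAC1, PET9 and AAC3 are close in sequence, and whether their probes also take up signal of one another was not tested.

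The phosphate carriers diverged as well. MIR1 (YJR077C), the main phosphate carrier of the inner membrane, rose by 1.23 in WT, 1.27 in sef1 and 1.39 in SEF1-VP16, a mean of 2.45-fold with adjusted p at most 2.66e-05. PIC2 (YER053C), which carries phosphate and also copper, was called lower in YPGly in WT and sef1 and not in SEF1-VP16, with differences of -1.10 ± 0.10 in WT, -1.75 ± 0.07 in sef1 and -0.20 ± 0.13 in SEF1-VP16 (SE). Its array values are given with the strains below. ANT1 (YPR128C), which brings ATP into peroxisomes for fatty acid activation, rose by 1.74 in WT, 2.13 in sef1 and 1.13 in SEF1-VP16, with no YPGly array as low as any YPD array. The common medium difference with slide as a term was 0.73 ± 0.10 (SE, adjusted p = 7.16e-07) for ANT1 and 0.45 ± 0.19 (SE, adjusted p = 0.0415) for PIC2. That fit sets the WT and SEF1-VP16 differences against that of sef1, and for PIC2 it reversed the sign.

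GGC1 (YDL198C), the GTP/GDP carrier, fell, with differences of -1.48 in WT, -1.74 in sef1 and -1.68 in SEF1-VP16, and RIM2 (YBR192W), which carries pyrimidine nucleotides, fell, with differences of -0.78 in WT, -0.70 in sef1 and -1.14 in SEF1-VP16. SAL1 (YNL083W), a calcium-dependent carrier of ATP, was not called in any strain, with differences of 0.14 in WT, 0.29 in sef1 and 0.10 in SEF1-VP16 and a 95% interval of -0.05 to 0.32 in WT.

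The carboxylate carriers held the largest difference of the family. SFC1 (YJR095W) exchanges cytosolic succinate for matrix fumarate and links the glyoxylate cycle to the TCA cycle. In YPD it read -4.86, -4.98, -4.78 and -5.09 on the WT arrays, -5.24, -4.91, -5.13 and -5.17 on the sef1 arrays and -5.12, -4.99, -4.89 and -5.16 on the SEF1-VP16 arrays. On glycerol it read 2.75, 3.16, 2.95 and 2.96 on the WT arrays, 2.73, 2.50, 3.01 and 3.11 on the sef1 arrays and 2.87, 3.04, 3.06 and 2.92 on the SEF1-VP16 arrays. The nearest arrays of the 2 media were 7.28 log2 units apart, and the difference was 7.89 ± 0.10 in WT, 7.95 ± 0.12 in sef1 and 8.01 ± 0.07 in SEF1-VP16 (SE), a mean of 247-fold with adjusted p at most 2.16e-12. No strain difference was called for SFC1 in either medium, and the 95% interval of the difference between SEF1-VP16 and sef1 in YPGly was -0.13 to 0.41.

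ODC1 (YPL134C) and ODC2 (YOR222W) carry 2-oxoglutarate and related dicarboxylates, and they moved in opposite directions. ODC1 read -0.10, -0.23, -0.15 and -0.17 on the WT arrays, -0.44, -0.42, -0.44 and -0.36 on the sef1 arrays and -0.78, -0.82, -0.65 and -0.77 on the SEF1-VP16 arrays in YPD. On glycerol it read 2.50, 2.85, 2.54 and 2.69 on the WT arrays, 2.47, 2.28, 2.77 and 2.96 on the sef1 arrays and 2.65, 2.72, 2.69 and 2.74 on the SEF1-VP16 arrays. It thus rose in every strain without overlap, by 2.81 ± 0.09 in WT, 3.04 ± 0.12 in sef1 and 3.45 ± 0.05 in SEF1-VP16 (SE), a mean of 8.57-fold with adjusted p at most 1.9e-09. ODC2 fell, with differences of -1.31 in WT, -1.56 in sef1 and -1.42 in SEF1-VP16 (adjusted p at most 7.32e-07), again with no array of one medium inside the range of the other.

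Of the remaining carboxylate carriers, DIC1 (YLR348C), the dicarboxylate carrier, rose by 0.90 in WT, 0.81 in sef1 and 1.36 in SEF1-VP16. YHM2 (YMR241W), which exchanges citrate for oxoglutarate, differed by 0.95 in WT, 0.62 in sef1 and 0.20 in SEF1-VP16 and was called in WT and sef1. The YHM2 call in sef1 was lost under quantile normalization (0.55) and scaling to the array median (0.54), and with slide as a term its common medium difference of 0.54 was not called, against the calls in WT and sef1. OAC1 (YKL120W), the oxaloacetate carrier, fell, with differences of -1.05 in WT, -1.33 in sef1 and -1.96 in SEF1-VP16. CTP1 (YBR291C), the citrate carrier, was not called in any strain with differences of 0.52 in WT, 0.38 in sef1 and 0.40 in SEF1-VP16, although all its 12 YPGly arrays lay above its 12 YPD arrays.

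Of the 5 carriers of amino acids and carnitine, 1 was called higher in every strain and 3 lower in every strain. CRC1 (YOR100C), the carnitine carrier through which acetyl units enter mitochondria, read -3.08, -3.25, -3.31 and -3.49 on the WT arrays, -3.68, -3.32, -3.85 and -3.85 on the sef1 arrays and -3.86, -3.72, -3.85 and -3.84 on the SEF1-VP16 arrays in YPD. In YPGly the readings were 0.50, 0.58, 0.54 and 0.60 on the WT arrays, 0.77, 0.73, 0.77 and 0.80 on the sef1 arrays and 0.55, 0.73, 1.02 and 0.76 on the SEF1-VP16 arrays. The YPGly arrays spanned 0.50 to 1.02 and the YPD arrays -3.86 to -3.08, and the differences were 3.84 ± 0.09 in WT, 4.44 ± 0.10 in sef1 and 4.58 ± 0.09 in SEF1-VP16 (SE), a mean of 19.6-fold with adjusted p at most 8.9e-11.

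ORT1 (YOR130C), which exports ornithine from the matrix for arginine synthesis, moved the other way. It read -0.95, -0.85, -0.84 and -0.90 on the WT arrays, -0.77, -0.74, -0.63 and -0.66 on the sef1 arrays and -0.52, -0.55, -0.59 and -0.65 on the SEF1-VP16 arrays in YPD. On the YPGly arrays the values were -3.04, -3.01, -3.21 and -3.08 on the WT arrays, -3.38, -3.39, -3.34 and -3.19 on the sef1 arrays and -2.98, -3.01, -3.01 and -3.12 on the SEF1-VP16 arrays. The nearest arrays of the 2 media were 2.03 log2 units apart, and the level fell, with differences of -2.20 in WT, -2.63 in sef1 and -2.45 in SEF1-VP16, a mean fall of 5.38-fold with adjusted p at most 1.01e-09.

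YMC2 (YBR104W), a glutamate carrier, and its paralog YMC1 (YPR058W) were both lower in YPGly. YMC2 read -2.66, -1.89, -1.91 and -2.06 on the WT arrays, -1.64, -1.55, -1.42 and -1.61 on the sef1 arrays and -1.25, -1.01, -1.02 and -0.96 on the SEF1-VP16 arrays in YPD. In YPGly it read -3.53, -3.15, -3.27 and -3.59 on the WT arrays, -3.29, -3.37, -3.35 and -3.32 on the sef1 arrays and -3.13, -3.46, -3.49 and -3.78 on the SEF1-VP16 arrays. The level fell, with differences of -1.25 in WT, -1.78 in sef1 and -2.40 in SEF1-VP16, a mean fall of 3.51-fold with adjusted p at most 7.28e-05, and the YPD values of the strains were spread more widely than their YPGly values. YMC1 fell, with differences of -0.63 in WT, -0.84 in sef1 and -1.03 in SEF1-VP16, with no overlap between media. AGC1 (YPR021C), the aspartate and glutamate carrier, was not called in any strain, and its differences were 0.42 in WT, 0.26 in sef1 and 0.34 in SEF1-VP16.

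The 9 carriers of cofactors and metals included none that was called higher in any strain, against 19.4% to 21.1% of all genes tested, by strain. FLX1 (YIL134W), the FAD carrier, read -1.96, -2.02, -1.88 and -2.27 on the WT arrays, -2.10, -2.11, -1.96 and -2.12 on the sef1 arrays and -1.91, -1.84, -1.82 and -1.76 on the SEF1-VP16 arrays in YPD. The YPGly readings were -4.06, -3.54, -4.00 and -3.71 on the WT arrays, -3.73, -3.67, -3.71 and -3.74 on the sef1 arrays and -3.56, -3.62, -3.63 and -3.77 on the SEF1-VP16 arrays. The ranges were far apart, and the level fell, with differences of -1.79 in WT, -1.64 in sef1 and -1.81 in SEF1-VP16, a mean fall of 3.36-fold with adjusted p at most 5.92e-07. The iron carriers MRS3 (YJL133W) and MRS4 (YKR052C), which feed iron to heme and iron-sulfur cluster synthesis, were also lower on all 12 YPGly arrays. MRS3 fell, with differences of -1.58 in WT, -1.75 in sef1 and -1.71 in SEF1-VP16, and MRS4 fell, with differences of -0.83 in WT, -0.70 in sef1 and -0.58 in SEF1-VP16, the last of which did not pass 1.5-fold.

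The other 6 members of that group were called in no strain. YIA6 (YIL006W) and YEA6 (YEL006W), which carry NAD+, differed by 0.25 in WT, 0.37 in sef1 and 0.22 in SEF1-VP16 and by -0.05 in WT, -0.04 in sef1 and -0.10 in SEF1-VP16. For TPC1 (YGR096W), the thiamine pyrophosphate carrier, the differences were 0.38 in WT, 0.13 in sef1 and 0.14 in SEF1-VP16, and for PET8 (YNL003C), the S-adenosylmethionine carrier, -0.31 in WT, -0.32 in sef1 and -0.05 in SEF1-VP16. LEU5 (YHR002W), required for coenzyme A in the matrix, differed by -0.17 in WT, -0.17 in sef1 and 0.07 in SEF1-VP16. MTM1 (YGR257C), which affects manganese and pyridoxal phosphate supply, differed by -0.20 in WT, -0.05 in sef1 and 0.06 in SEF1-VP16. These values bound the changes and do not show that there were none.

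With slide as a term, the common medium difference of 4 called carriers was at least 1.5 times that of the strain with the smallest change. It was -1.22 for RIM2, 1.44 for DIC1, -1.68 for OAC1 and -1.88 for YMC2, all still called.

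**Figure D2:**
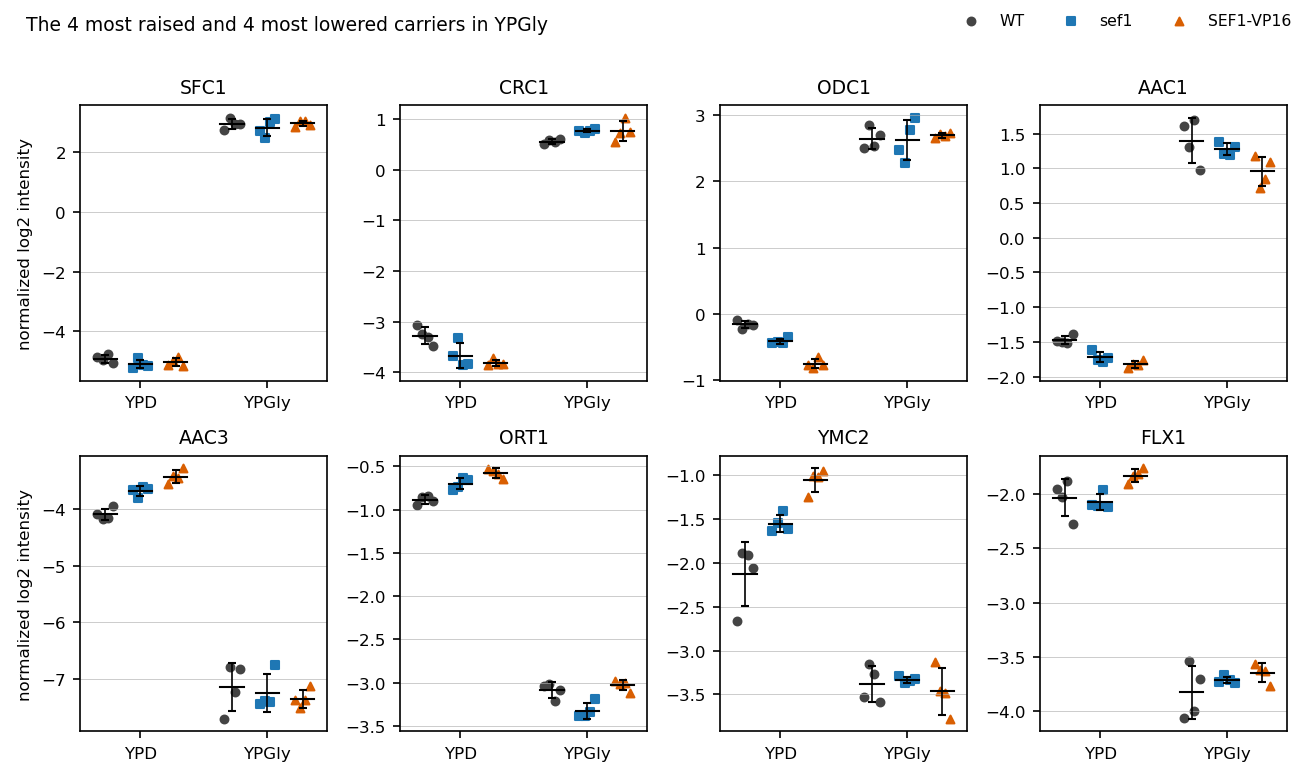
Normalized log2 intensity (y axis, with a range of its own in each panel) on each array for the 4 carriers with the largest mean rise (upper row) and the 4 with the largest mean fall (lower row) in YPGly, by medium (x axis) and strain (circles WT, squares sef1, triangles SEF1-VP16; horizontal bar and whisker, mean and SD of 4 arrays). In each of the 8 panels the YPGly arrays lie wholly on one side of the YPD arrays, and the YPD values of AAC3, ODC1 and YMC2 are ordered by strain.

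Since several carriers come as related pairs for like substrates, the change of their signal ratio within each array was tested between media. Such a ratio does not depend on the scaling of the array. In every strain, however, the arrays of the 2 media lay on different slides. An effect of the slide on single probes would not cancel in the ratio and cannot be told apart from the medium. It shows unequal change of 2 transcripts and says nothing of which is the more abundant. The 8 pairs were compared with a two-sided exact permutation test that exchanged the media labels within each strain (343000 arrangements, smallest possible p = 5.83e-06), with Benjamini-Hochberg adjustment over the 8. The ratio changed in all 8 pairs (highest adjusted p = 0.000128). Ratios of other gene pairs were not tested, so this count has no background. By the adjusted p of the limma fits alone, most single genes differed between media. Of 5641 genes, 4039 passed in WT, 4502 in sef1 and 4482 in SEF1-VP16.

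Of the 8 ratios, that of AAC1 to AAC3 changed the most. It rose by 6.39 ± 0.13 log2 units (SE, mean over the strains, adjusted p = 7.77e-06), an 83.9-fold shift toward AAC1. That of AAC3 to PET9 changed by -4.39 ± 0.09 and that of AAC1 to PET9 by 2.01 ± 0.12 (adjusted p = 7.77e-06 for each). With normexp correction the 2 ratios that hold AAC3, whose probe was near background in YPGly, changed by 5.13 and -3.23. The AAC1 ratio to PET9 moved by 2.25 in WT and 2.14 in sef1 and by 1.63 in SEF1-VP16.

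ODC1 shifted against ODC2 by 4.53 ± 0.06, a 23.1-fold change. MIR1 shifted against PIC2 by 2.31 ± 0.12, although by strain this was 3.02 in sef1, 2.33 in WT and 1.59 in SEF1-VP16. In each of these pairs 1 partner rose on glycerol and the other fell in at least 2 strains.

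In the remaining pairs the partners moved the same way or hardly moved. The ratio of MRS3 to MRS4 changed by -0.98 ± 0.05 (adjusted p = 7.77e-06), both partners being lower in YPGly. YMC1 changed against YMC2 by 0.98 ± 0.09 (adjusted p = 1.33e-05), and YIA6 against YEA6 by only 0.34 ± 0.06, a 1.27-fold shift (adjusted p = 0.000128). The arrays of the 2 media overlapped for the YMC and the NAD+ pair and for no other pair. Within a single strain the exact permutation test has 70 arrangements and cannot go below p = 0.0286. At that resolution the NAD+ pair missed the threshold in WT (0.30, adjusted p = 0.0857) and SEF1-VP16 (0.31, adjusted p = 0.0571), and the YMC pair in WT (0.63, adjusted p = 0.0653).

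**Figure D3:**
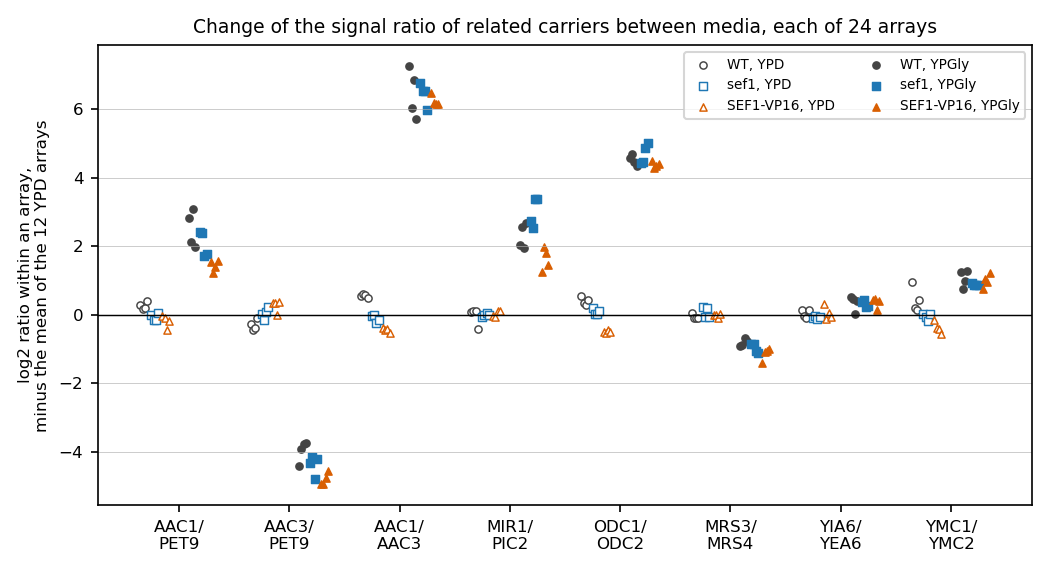
Log2 ratio of 2 related carriers on each array, minus its mean over the 12 YPD arrays (y axis), for 8 pairs (x axis); open symbols are YPD and filled symbols YPGly arrays, with circles for WT, squares for sef1 and triangles for SEF1-VP16. The AAC1 to AAC3 and ODC1 to ODC2 ratios lie highest in YPGly, AAC3 to PET9 lowest, and the YIA6 to YEA6 ratio stays near 0.

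Between the strains far fewer carriers were called than between media, and different ones in the 2 media. The comparisons of the 3 strains within a medium share their arrays. Their median differences over the 30 carriers ran from -0.02 to 0.09, and over all genes tested from -0.02 to 0.03. Deletion of SEF1 changed none of the 30 in YPD by the calling rule, a comparison made within slide 1 with a background of 0.567% of genes called higher and 0.106% lower. By adjusted p alone, with no fold minimum, 4 carriers passed in that comparison, as did 460 of the 5641 genes tested. In YPGly 1 carrier, ANT1, was called higher in sef1 than in WT (background 0.408%) and 1, PIC2, lower (background 0.39%). The same 2 genes, with the directions exchanged, were the carriers called between SEF1-VP16 and sef1 in YPGly, where 1.97% of all genes were called higher and 1.12% lower. SEF1-VP16 against WT in YPGly gave 2 carriers called higher, PIC2 and PET9, and none lower, against 0.904% and 0.195% of genes. In YPD, SEF1-VP16 had 4 carriers called above WT and 1 called below it (background 5.66% and 3.49%). Between SEF1-VP16 and sef1 in YPD none was called in either direction (background 1.58% and 1.56%). By adjusted p alone 13 carriers passed there, as did 2488 of the 5641 genes tested. The balance of all calls depended on the scaling: with arrays scaled to their median, the share of calls that were higher went from 61.8% to 44.5% for SEF1-VP16 against WT in YPD, from 51.1% to 37.8% for sef1 against WT in YPGly, from 50.3% to 34.3% for SEF1-VP16 against sef1 in YPD and from 63.8% to 76.8% for the same pair in YPGly.

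**Figure D4:**
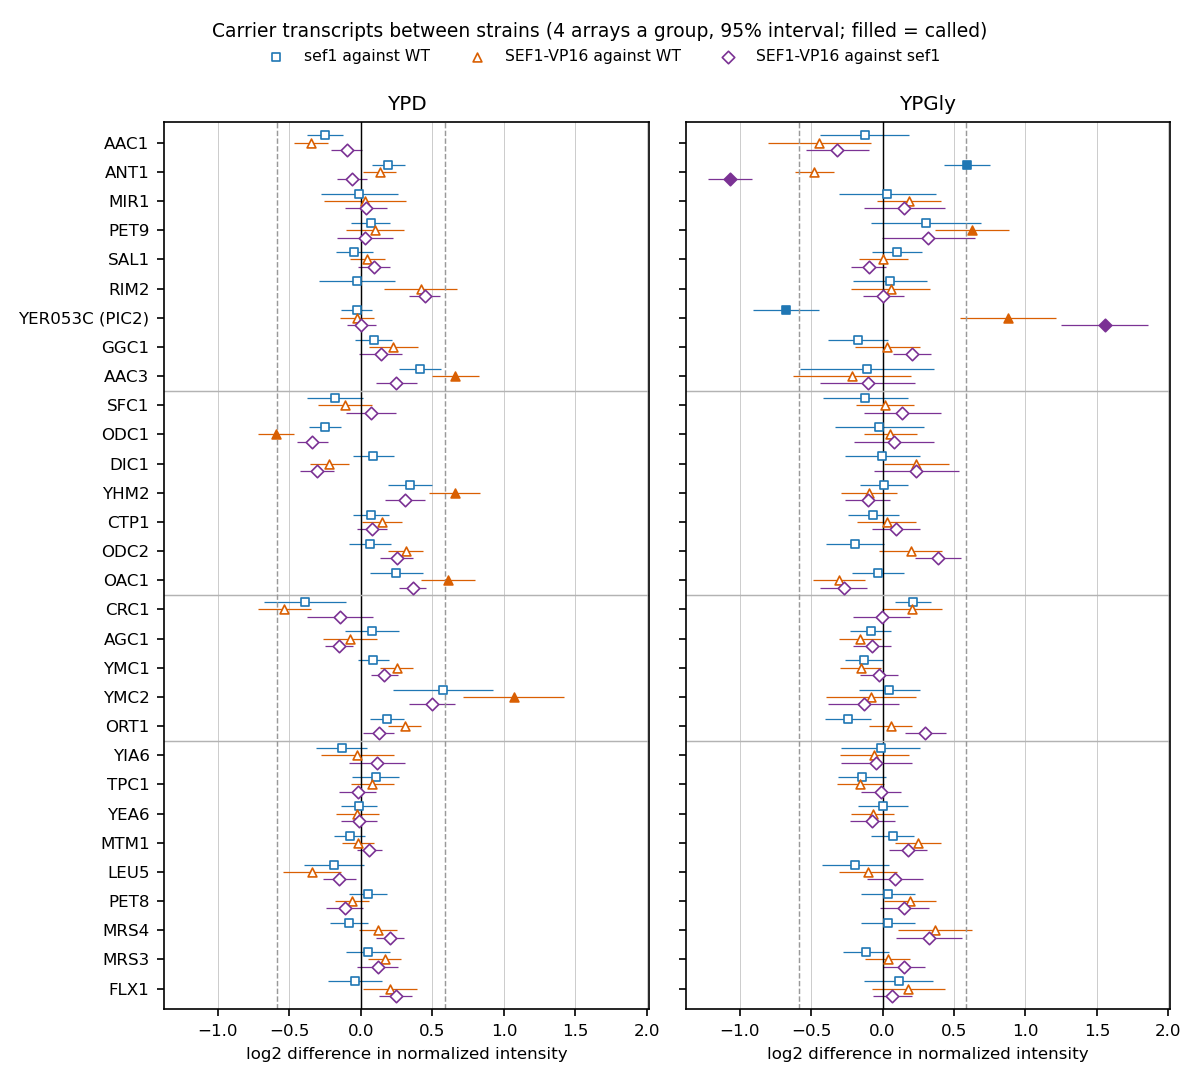
Log2 difference in normalized intensity between strains (x axis) in YPD (left) and YPGly (right) for each of the 30 carriers (y axis), for sef1 against WT (squares), SEF1-VP16 against WT (triangles) and SEF1-VP16 against sef1 (diamonds); bars are 95% intervals of the limma fit, filled symbols are called and dashed lines mark 1.5-fold. In YPGly the filled symbols are those of PIC2, ANT1 and PET9, and in YPD those of AAC3, ODC1, YHM2, OAC1 and YMC2.

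PIC2 was the carrier called between all 3 pairs of strains in YPGly, lowest without SEF1 and highest with SEF1-VP16, and it was called between no strains in YPD. In YPD the 12 arrays were alike, with readings of 1.91, 1.79, 1.88 and 1.83 on the WT arrays, 1.81, 1.81, 1.85 and 1.82 on the sef1 arrays and 1.76, 1.84, 1.91 and 1.79 on the SEF1-VP16 arrays. In YPGly they were 0.88, 0.74, 0.89 and 0.48 on the WT arrays, 0.19, 0.20, -0.06 and -0.04 on the sef1 arrays and 1.96, 1.33, 1.42 and 1.81 on the SEF1-VP16 arrays. The 3 strains formed an order there without overlap: all sef1 arrays were the lowest, the WT arrays were in between, and all SEF1-VP16 arrays were the highest.

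In YPGly, PIC2 differed by -0.68 ± 0.10 (SE, adjusted p = 0.00863) between sef1 and WT, a 1.6-fold lower level. Between SEF1-VP16 and WT the difference was 0.88 ± 0.15 (SE, adjusted p = 0.0136), 1.84-fold higher. The comparison of SEF1-VP16 with sef1 lay within slide 3 and gave 1.55 ± 0.14 (SE, adjusted p = 5.4e-05), 2.93-fold higher, a call that held under every alternative tried and without each of the 8 arrays in turn. In YPD the within-slide difference of sef1 from WT was -0.03 ± 0.05 (95% interval -0.14 to 0.08). The comparison of SEF1-VP16 with WT in YPGly was no longer called without SEF1-VP16 replicate 4 (0.82, adjusted p = 0.0583), nor by the methods' t-test (adjusted p = 0.109). That test also missed sef1 against WT (adjusted p = 0.0574). With slide as a term the difference of sef1 from WT rests on the YPD arrays of slide 1 alone, and it was -0.03 for PIC2.

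Seen from the medium, PIC2 in SEF1-VP16 kept close to its YPD level on glycerol (-0.20 ± 0.13, 95% interval -0.48 to 0.09), whereas it fell 2.15-fold in WT and 3.36-fold in sef1. The difference between strains in this response was tested as a medium dependence, as the strain difference in YPGly minus that in YPD. It was called for 2 of the 30 carriers between sef1 and WT (0.886% of all genes), for 8 between SEF1-VP16 and WT (10.6% of all genes) and for 4 between SEF1-VP16 and sef1 (8.62% of all genes). Since each of these tests sets arrays of different slides against each other, slide and strain response cannot be told apart in them. For PIC2 it was -0.64 ± 0.12 (SE, adjusted p = 0.0133) between sef1 and WT, 0.91 ± 0.17 (SE, adjusted p = 0.000894) between SEF1-VP16 and WT and 1.55 ± 0.15 (SE, adjusted p = 2.93e-06) between SEF1-VP16 and sef1. The first missed 1.5-fold under quantile normalization (-0.58).

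ANT1 moved opposite to PIC2 in YPGly. Its YPD arrays read -1.36, -1.37, -1.41 and -1.47 on the WT arrays, -1.27, -1.19, -1.24 and -1.15 on the sef1 arrays and -1.22, -1.34, -1.24 and -1.29 on the SEF1-VP16 arrays. Its YPGly arrays read 0.42, 0.33, 0.28 and 0.30 on the WT arrays, 0.82, 0.82, 1.05 and 0.99 on the sef1 arrays and -0.07, -0.16, -0.15 and -0.20 on the SEF1-VP16 arrays. The strains were again separate from each other on glycerol, but with sef1 the highest and SEF1-VP16 the lowest.

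ANT1 was 2.1-fold lower in SEF1-VP16 than in sef1 within slide 3, at -1.07 ± 0.07 (SE, adjusted p = 6.12e-06), and this call held under every alternative tried. Between sef1 and WT it was 0.59 ± 0.07 (SE, adjusted p = 0.00368), just past 1.5-fold, and the call was lost without WT replicate 3 (0.57) or 4 (0.58), without sef1 replicate 3 (0.55) or 4 (0.57), and under quantile normalization (0.57) or scaling to the array median (0.57). With slide as a term it was 0.19. SEF1-VP16 differed from WT by -0.48 ± 0.06 (SE, adjusted p = 0.00246), which fell short of 1.5-fold. In YPD, the within-slide difference of sef1 from WT was 0.19 ± 0.05 (SE, adjusted p = 0.0505), which missed the threshold. The medium dependence was -1.01 ± 0.08 (SE, adjusted p = 3.24e-07) between SEF1-VP16 and sef1 and -0.61 ± 0.07 (SE, adjusted p = 3.99e-05) between SEF1-VP16 and WT. The latter missed 1.5-fold without WT replicate 1 in YPGly (-0.58), under normexp correction (-0.41), under quantile normalization (-0.51) and under scaling to the array median (-0.49).

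PET9 was called in YPGly between SEF1-VP16 and WT, at 0.62 ± 0.12 (SE, adjusted p = 0.0241). On the arrays given above all 4 SEF1-VP16 values exceeded all 4 WT values, while sef1 replicates 1 and 2 lay inside the WT range and sef1 replicates 3 and 4 inside the SEF1-VP16 range. The difference of SEF1-VP16 from sef1 within slide 3 was 0.32 ± 0.15 (SE, adjusted p = 0.136). The PET9 call did not hold without WT replicate 1 (0.59) or 3 (0.53) or without SEF1-VP16 replicate 2 (0.63), 3 (0.65) or 4 (0.63), for which the adjusted p ran from 0.0497 to 0.0786. Nor did it hold by the methods' t-test (adjusted p = 0.115), under quantile normalization (0.47), with no filter on dim probes (adjusted p = 0.0541) or with slide as a term (0.39).

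In YPD, the 5 carriers called between SEF1-VP16 and WT were AAC3, OAC1, YHM2 and YMC2, which were higher, and ODC1, which was lower. The arrays compared lay on different slides. AAC3 and ODC1 were given above array by array, and in both the 4 SEF1-VP16 values lay outside the WT range. AAC3 was higher by 0.66 ± 0.07 (SE, adjusted p = 0.000112), which missed 1.5-fold under normexp correction (0.54), quantile normalization (0.54) and scaling to the array median (0.57). ODC1 differed by -0.59 ± 0.06 (SE, adjusted p = 3.95e-05), which missed it without WT replicate 1 or SEF1-VP16 replicate 2 (-0.57 in both) and under normexp correction (-0.57). The sef1 arrays, which shared the slide with WT, stood between WT and SEF1-VP16 for both genes, with differences from WT of 0.41 ± 0.07 (SE, adjusted p = 0.0136) for AAC3 and -0.25 ± 0.05 (SE, adjusted p = 0.0222) for ODC1. Both comparisons use the same WT arrays.

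OAC1 read -1.61, -1.32, -1.60 and -1.27 on the WT arrays, -1.20, -1.22, -1.19 and -1.21 on the sef1 arrays and -0.81, -0.82, -0.91 and -0.84 on the SEF1-VP16 arrays in YPD. In YPGly it read -2.32, -2.51, -2.57 and -2.60 on the WT arrays, -2.49, -2.41, -2.60 and -2.63 on the sef1 arrays and -2.83, -2.68, -2.92 and -2.79 on the SEF1-VP16 arrays. The SEF1-VP16 arrays were thus the highest group in YPD, without overlap, and in YPGly they were the lowest, also without overlap. The YPD difference from WT was 0.61 ± 0.08 (SE, adjusted p = 0.00036), the YPGly difference -0.30 ± 0.08 (SE, adjusted p = 0.121), and the medium dependence -0.91 ± 0.12 (SE, adjusted p = 7.09e-05). Without WT replicate 1 (0.55) or 3 (0.56), under quantile normalization (0.54) and under scaling to the array median (0.51) the YPD difference missed 1.5-fold. Against sef1 the medium dependence was -0.63 ± 0.08 (SE, adjusted p = 3.12e-05), and it missed 1.5-fold under quantile normalization (-0.57) and scaling to the array median (-0.53). With slide as a term the common difference of SEF1-VP16 from WT was -0.03 ± 0.11 (SE, adjusted p = 0.922), of the opposite sign to the YPD value.

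YHM2 gave a like order in YPD, with readings of -1.66, -1.71, -1.75 and -1.93 on the WT arrays, -1.50, -1.45, -1.34 and -1.39 on the sef1 arrays and -0.96, -1.25, -1.10 and -1.13 on the SEF1-VP16 arrays. In YPGly, where it read -0.71, -0.79, -0.999 and -0.75 on the WT arrays, -0.80, -0.87, -0.81 and -0.74 on the sef1 arrays and -0.92, -0.81, -0.82 and -1.07 on the SEF1-VP16 arrays, the strains overlapped. The YPD differences from WT were 0.34 ± 0.07 (SE, adjusted p = 0.0242) for sef1, within the slide, and 0.65 ± 0.08 (SE, adjusted p = 0.000163) for SEF1-VP16, and the medium dependence between SEF1-VP16 and WT was -0.75 ± 0.12 (SE, adjusted p = 0.000301). Under scaling to the array median the YPD call of SEF1-VP16 was lost (0.56).

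YMC2 had the largest of the YPD differences, with SEF1-VP16 1.07 ± 0.16 (SE, adjusted p = 0.000506) above WT, 2.1-fold. On the YPD arrays listed above, WT was the lowest group, sef1 intermediate and SEF1-VP16 the highest, with no overlap between them. WT replicate 1 stood apart from the other WT arrays, and without it the difference was 0.89. The sef1 arrays were 0.57 ± 0.16 (SE, adjusted p = 0.0521) above WT and SEF1-VP16 was 0.49 ± 0.07 (SE, adjusted p = 0.000357) above sef1, both short of 1.5-fold. The medium dependence was -1.15 ± 0.23 (SE, adjusted p = 0.00137) between SEF1-VP16 and WT and -0.63 ± 0.14 (SE, adjusted p = 0.00291) between SEF1-VP16 and sef1. The second missed 1.5-fold without SEF1-VP16 replicate 4 in YPGly (-0.52), under normexp correction or quantile normalization (-0.58 in both) and under scaling to the array median (-0.52).

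The 5 carriers called in YPD were picked by the YPD difference, which is part of the medium dependence. Calls of that dependence therefore repeat the choice in part. For all 5 the medium response differed between SEF1-VP16 and WT by the test, being -0.87 ± 0.22 (SE, adjusted p = 0.00614) for AAC3 and 0.65 ± 0.10 (SE, adjusted p = 0.000213) for ODC1. These 2 missed 1.5-fold under other processing, AAC3 with normexp correction (-0.54) and ODC1 with quantile normalization (0.57). In the fit with slide as a term none of the 5 was called between SEF1-VP16 and WT. That fit joined the within-slide YPD value of sef1 against WT to the within-slide YPGly value of SEF1-VP16 against sef1, and it called 2 carriers, PIC2 (1.52 ± 0.15 (SE, adjusted p = 2.78e-07)) and ANT1 (-0.88 ± 0.08 (SE, adjusted p = 4.97e-08)). CRC1 also gave a medium dependence, at 0.74 ± 0.13 (SE, adjusted p = 0.000567) between SEF1-VP16 and WT and 0.60 ± 0.14 (SE, adjusted p = 0.0417) between sef1 and WT. Its YPD differences from WT were -0.54 ± 0.08 (SE, adjusted p = 0.000674) for SEF1-VP16 and -0.39 ± 0.13 (SE, adjusted p = 0.0827) for sef1, neither of them called. The dependence between sef1 and WT was lost under normexp correction (0.43), by the methods' t-test (adjusted p = 0.0693) and in 13 of 16 fits that each left out 1 array, with values from 0.54 to 0.62, and was kept only without WT replicate 4 in YPD, sef1 replicate 2 in YPD or WT replicate 4 in YPGly.

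**Figure D5:**
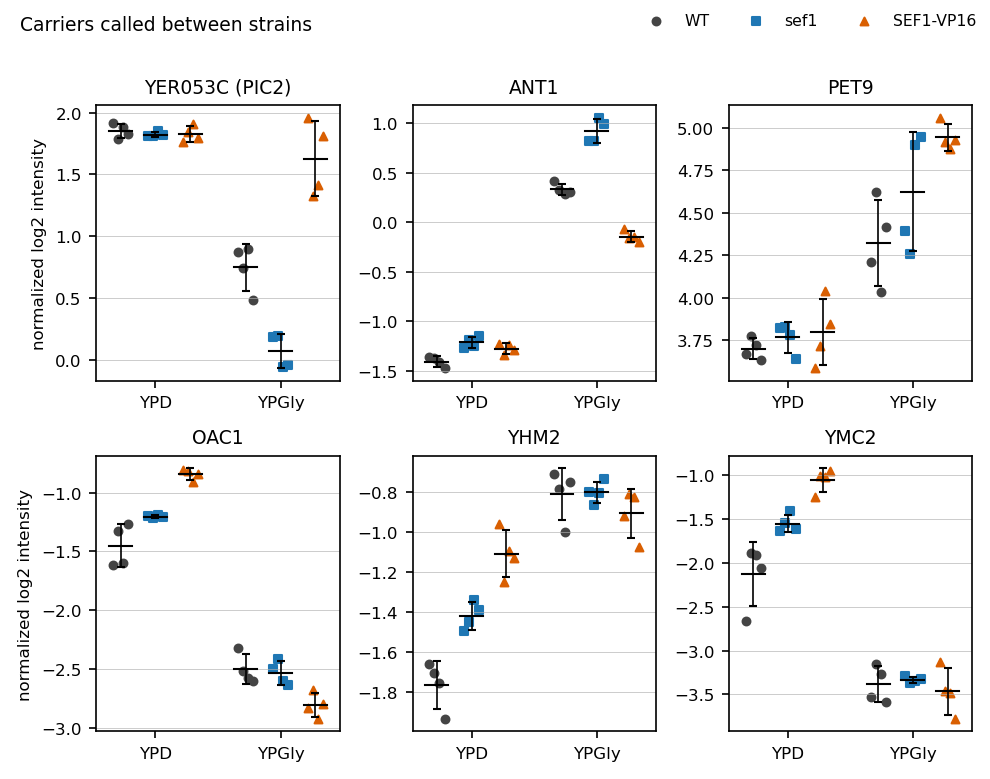
Normalized log2 intensity (y axis, with a range of its own in each panel) on each array for 6 carriers called between strains, by medium (x axis) and strain (circles WT, squares sef1, triangles SEF1-VP16; horizontal bar and whisker, mean and SD of 4 arrays). PIC2 and ANT1 separate the strains in YPGly in opposite orders, and OAC1, YHM2 and YMC2 separate them in YPD.

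The other 22 carriers were not called between strains in either medium. The share of all genes called in no strain comparison was not counted, so this count has no background. SFC1, AAC1, ORT1 and CRC1, which changed widely with the medium, were among these 22 carriers. AAC1 was nonetheless lower in SEF1-VP16 than in WT by adjusted p in YPD, at -0.35 ± 0.05 (SE, adjusted p = 0.000554), and in sef1 at -0.25 ± 0.06 (SE, adjusted p = 0.0308), both under 1.5-fold. In YPD, RIM2 differed between SEF1-VP16 and sef1 at 0.44 ± 0.05 (SE, adjusted p = 6.41e-05), also under 1.5-fold.

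Proteins of the same family outside the 30 and other channels and carriers of the mitochondrial membranes were read alongside. Of 5 further carriers, HEM25 (YDL119C), a glycine carrier for heme synthesis, and MME1 (YMR166C), a magnesium carrier, were called lower in YPGly in every strain. HEM25 fell, with differences of -1.54 in WT, -1.61 in sef1 and -1.38 in SEF1-VP16, and MME1 fell, with differences of -1.05 in WT, -0.85 in sef1 and -0.84 in SEF1-VP16. UGO1, YFR045W and YPR011C were called in no comparison. Of the 6 other channels and carriers, the pyruvate carrier subunits MPC3 and MPC2 split between the directions, as ODC1 and ODC2 did. MPC3 (YGR243W), the subunit of respiratory growth, rose by 2.81 in WT, 3.05 in sef1 and 3.45 in SEF1-VP16. MPC2 (YHR162W), the subunit of fermentative growth, fell, with differences of -1.55 in WT, -1.46 in sef1 and -1.06 in SEF1-VP16. MPC1 (YGL080W), their common partner, rose by 1.63 in WT, 1.28 in sef1 and 2.05 in SEF1-VP16. Within slide 3 the SEF1-VP16 arrays exceeded the sef1 arrays for MPC1, at 0.65 ± 0.13 (SE, adjusted p = 0.00812), a call lost without SEF1-VP16 replicate 3 (0.58) or 4 (0.58). The common medium difference of MPC1 with slide as a term was 2.41. The outer membrane porin POR1 (YNL055C) was called higher in YPGly in 1 strain, SEF1-VP16 (0.86), and its paralog POR2 (YIL114C) fell, with differences of -1.09 in WT, -1.36 in sef1 and -1.36 in SEF1-VP16. FSF1 (YOR271C), a sideroflexin, was higher in SEF1-VP16 than in WT in YPD, at 0.98 ± 0.08 (SE, adjusted p = 1.51e-05), across slides. With slide as a term the FSF1 difference was 0.45 and was not called.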

How the data were processed

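Total RNA was converted to oligo-dT primed, Alexa dye labelled cDNA and hybridised to one-color arrays, 1 sample an array. Per the labels and the study's methods, the authors extracted spot intensities with Agilent Feature Extraction 10.5.1.1, and in the deposited scanner files the intensity used was the processed signal, which is background-subtracted and given for 2 spots per probe. The deposited log2 table was found to equal the mean log2 intensity of the unmarked spots minus a constant for each array (largest departure 2.48e-06), so its scale and direction are settled, and the column medians were -1.595 to -1.407.

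From the scanner files, 164 spots marked as outliers were left out (15 probe values missing), spots of a probe were averaged on the log2 scale, and each array's 75th percentile was subtracted. Genes with mean intensity under 200 in all 6 groups were omitted, leaving 5641 of 6256. Groups were compared with limma 3.58.1 in R 4.3.3 (lmFit and eBayes on the groups compared), with Benjamini-Hochberg adjustment over all 5641, tested on simulated data. The medium dependence used the 4 groups involved. Ratios of related carriers were tested by exact permutation.

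Members and gene lists were chosen with earlier results of these data known. Named with all array values are the carriers called between strains and the 4 with the largest and 4 with the smallest mean difference between media; all others are given by group differences. Alternatives were the methods' t-test, normexp correction on the median spot and local background signals, quantile and median scaling, the deposited table, other filters, outlier spots kept, all 24 arrays in 1 fit, slide as a term, a replicate block, other fold minimums and each array left out. The number of arrays limits the precision. Values are relative to all genes of an array and show no change in total RNA. The array design names the sacCer1 build, and no coordinates are given.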

Additional observations from a re-analysis of the deposited data

Results flagged for a closer look

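In 9 of 180 checks of a carrier within a group of 4 arrays, 1 array stood far from the other 3 by Dixon's criterion at the 95% level. Chance flags about 1 in 20 such groups, which is the share found. In WT in YPD, replicate 4 read low for MIR1 (1.88 against 2.36 to 2.46) and for TPC1 (-3.48 against -3.27 to -3.24). In sef1, replicate 3 in YPD read high for FLX1 (-1.96 against -2.12 to -2.10), and replicate 4 in YPGly read high for AAC3 (-6.75 against -7.44 to -7.39). In SEF1-VP16 in YPD, replicate 1 read high for SAL1 (-1.28 against -1.39 to -1.38), replicate 4 for CTP1 (-2.30 against -2.45 to -2.44) and replicate 2 for CRC1 (-3.72 against -3.86 to -3.84). MTM1 read low on WT replicate 3 in YPGly (-0.60 against -0.42 to -0.38), and LEU5 read high on SEF1-VP16 replicate 4 in YPGly (-1.80 against -1.97 to -1.94).

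The strain difference itself depended on the medium, by the test of that dependence, for 8 of the 30 carriers and for 3 of the other channels and carriers. Between sef1 and WT it was -0.64 for PIC2 and 0.60 for CRC1. Between SEF1-VP16 and WT it was 0.91 for PIC2, 0.74 for CRC1, 0.65 for ODC1, -0.61 for ANT1, -0.75 for YHM2, -0.87 for AAC3, -0.91 for OAC1 and -1.15 for YMC2, and among the other channels and carriers 0.64 for MPC3 and -0.99 for FSF1. Between SEF1-VP16 and sef1 it was 1.55 for PIC2, -1.01 for ANT1, -0.63 for OAC1, -0.63 for YMC2 and 0.77 for MPC1. The YPD arrays of SEF1-VP16 lay on another slide than those of WT and sef1, and the YPGly arrays of WT on another than those of sef1 and SEF1-VP16, so slide and strain response cannot be told apart in these values.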

How the results depend on the processing

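The 12 counts of carriers and the named genes were recomputed under each alternative, except that slide as a term was not fitted for the medium dependences. The 8 ratios were recomputed with normexp correction, quantile normalization, the deposited table and outlier spots kept. They were also recomputed by strain, with the replicate block and with each array left out. No fit with slide as a term was run for the ratios. Counts between media stayed within 1.5 times and no paralog ratio changed sign, but within single strains the YIA6 to YEA6 ratio missed the threshold in WT (0.30) and SEF1-VP16 (0.31), as did the YMC1 to YMC2 ratio in WT (0.63). The sign turned in 3 values, all with slide as a term: OAC1 for SEF1-VP16 against WT in YPD (-0.025) and PIC2 for YPGly against YPD in WT and in sef1 (0.45). By its construction that fit gives strains 1 difference for both media.

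In YPD, 0 carriers of sef1 against WT were called by limma (4 with no fold minimum, 1 under normexp correction, 0 to 1 with 1 array left out), and the count in YPGly was 2 (0 with slide as a term or at a fold minimum of 2, 1 by the methods' t-test, quantile or median scaling, 1 to 2 with 1 array left out). For SEF1-VP16 against WT in YPD the count of 5 became 15 with no fold minimum, where 2716 of the 5641 genes tested passed. The carrier count became 3 under normexp correction or median scaling. It became 2 with slide as a term (PIC2 and ANT1, neither of them among the 5). At a fold minimum of 2 it became 1, and with 1 array left out 3 to 6. In YPGly the count of 2 became 0 by the t-test or at a fold minimum of 2. It became 1 under quantile normalization or with no filter, and 0 to 2 with 1 array left out. For SEF1-VP16 against sef1 in YPD, 0 became 13 with no fold minimum, and in YPGly 2 became 8. Of the 5641 genes tested, 2488 passed that way in YPD and 1282 in YPGly. With slide as a term the YPD count became 2 (PIC2 and ANT1), a difference that rests on the YPGly arrays of slide 3. Of the dependences on medium, that of sef1 against WT went from 2 to 4 with no fold minimum, 1 by the t-test, normexp or quantile, 0 at a fold minimum of 2 and 1 to 2 with 1 array left out. That of SEF1-VP16 against WT went from 8 to 13 and 1 at those fold minimums (7 to 9 with 1 array left out). Between SEF1-VP16 and sef1 the count went from 4 to 11 and 2 likewise. It was 2 under quantile normalization and 3 to 5 with 1 array left out. Without a fold minimum, 115, 1803 and 2111 of the 5641 genes tested passed for these dependences, in the order given.

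Deviations of same-numbered arrays of 2 groups correlated from -0.43 to 0.53. In 3 of 9 comparisons 3 of the 4 pairs were above 0.1 and in none all 4, and neither labels nor data settle that the numbers pair the arrays. The replicate block left the counts at 0 and 2 for sef1 against WT in YPD and YPGly, 5 and 2 for SEF1-VP16 against WT, 0 and 2 between the mutant strains, and 21, 21 and 18 between media. The paralog ratios with the replicate block ran from -4.39 to 6.39, as without it. Normexp used median spot signals, the mean being not used here. AAC3 in YPGly was the only carrier not well above background on every array of a group. Normexp correction nonetheless made differences of other carriers smaller, among them the medium dependences given above for ANT1 and CRC1.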
